A study of Mus musculus with 16 samples.

Results

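Fatty acid synthesis was examined through 10 genes of the enzymes and regulators that turn acetyl-CoA into long-chain fatty acids. They were taken by symbol (Fasn, Acaca, Acacb, Acly, Scd1, Scd2, Elovl5, Elovl6, Srebf1 and Mlxipl), and all 10 were found among the 22322 gene identifiers in each of the 2 deposited tables. RNA was measured in liver and white adipose tissue of mice with diet-induced obesity (DIO). They had received halofuginone for 8 weeks, injected into the peritoneum at 100 μg/kg every 2 days, or vehicle. The treated arm is labelled H100 and the other HFD, which the design makes the vehicle arm, so all animals were obese and the series holds no lean group. Liver had 5 HFD and 5 H100 libraries, and white adipose tissue had 3 and 3. The labels give no strain, sex, age, diet formula or fat depot, and do not say whether libraries came from separate animals. P-values therefore measure the spread between these libraries. Halofuginone inhibits prolyl-tRNA synthetase, the enzyme that charges tRNA with proline.

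In background, ATP citrate lyase (Acly) makes cytosolic acetyl-CoA from citrate, acetyl-CoA carboxylases (Acaca, Acacb) make malonyl-CoA, and fatty acid synthase (Fasn) builds palmitate from it. Elongases (Elovl5, Elovl6) lengthen the chain and stearoyl-CoA desaturases (Scd1, Scd2) add a double bond. Srebf1 encodes SREBP-1, which drives these genes in response to insulin, and Mlxipl encodes ChREBP, which drives them in response to carbohydrate. Liver and fat are the main sites of the pathway in the mouse.

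Promoter windows were looked up for all 10 genes. RefSeq windows (GRCm38.p6, 250 bases before to 50 bases after a start site) were listed for 8 of the 10 genes, in 11 windows. None was listed for Scd1 or Scd2, so the motif counts leave them out. Windows of 3 genes are shown because these genes fell in treated liver (Elovl5, Acacb) or had the largest log2 fold change of the 10 in fat (Fasn). The build named in the submitters' processing notes is mm39, so these coordinates belong to the windows alone. Each window reads 5′ to 3′ along the gene's strand, and capitals mark matches to any of 5 motifs searched on both strands.
Elovl5, chr9:77917115-77917414, + strand: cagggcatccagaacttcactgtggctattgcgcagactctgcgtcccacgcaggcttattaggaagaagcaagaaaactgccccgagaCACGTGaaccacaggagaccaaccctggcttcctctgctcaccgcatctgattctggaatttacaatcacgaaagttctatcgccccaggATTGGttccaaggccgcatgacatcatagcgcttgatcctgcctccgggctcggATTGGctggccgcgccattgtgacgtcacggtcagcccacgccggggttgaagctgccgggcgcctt
Acacb, chr5:114165268-114165567, + strand: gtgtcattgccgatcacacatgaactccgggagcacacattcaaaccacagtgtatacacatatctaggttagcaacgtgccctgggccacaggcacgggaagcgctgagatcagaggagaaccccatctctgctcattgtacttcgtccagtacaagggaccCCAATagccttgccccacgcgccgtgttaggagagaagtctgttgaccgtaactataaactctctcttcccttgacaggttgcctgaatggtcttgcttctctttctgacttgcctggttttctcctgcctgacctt
Fasn, chr11:120824498-120824797, - strand: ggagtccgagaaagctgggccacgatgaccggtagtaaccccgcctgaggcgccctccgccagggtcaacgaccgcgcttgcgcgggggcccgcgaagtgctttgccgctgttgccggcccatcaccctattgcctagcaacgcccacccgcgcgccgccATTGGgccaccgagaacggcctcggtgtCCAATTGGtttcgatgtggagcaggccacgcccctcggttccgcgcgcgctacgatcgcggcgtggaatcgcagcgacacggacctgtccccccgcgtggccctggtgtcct

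The motifs were the E-box CACGTG, the CCAAT box CCAAT bound by NF-Y, the sterol response element TCACNCCAC bound by SREBP, the sequence TGATGNAA bound by ATF4 with C/EBP proteins, and the carbohydrate response element, taken as a pair of E-boxes 5 bases apart. The window of Elovl5 held an E-box at position −161 and CCAAT boxes on the opposite strand at −71 and −17, counted from the start site. That of Fasn held 3 CCAAT boxes, at −90, −62 and −59, the last 2 on opposite strands and sharing bases. That of Acacb held 1, at −87. A CCAAT box was found in 7 of the 11 windows, from 6 genes, and in 37.4% of all 32851 windows. An E-box was found in 2 of 11 (Elovl5 and Mlxipl) and in 7.15% of all. The sterol response element matched 1 of 11, a window of Mlxipl (1.24% of all), TGATGNAA matched 0 of 11 (3.97% of all), and the carbohydrate response element matched 0 windows in all. These matches describe the letters in the windows only.

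Library totals ran between 20309956 and 31980683 in liver and between 17070614 and 21387799 in fat. Defining markers fitted both tissue labels: Alb reached 26739 to 98802 CPM (depth-scaled counts with TMM factors) in liver and at most 4.59 CPM in fat, and Adipoq reached 991 to 2543 CPM in fat and at most 1 count in any liver library. Treated liver replicate 1 stood apart, since the test called 2850 liver genes with it and 5312 without it. In fat, HFD replicate 3 held 76.2 CPM of an epididymis list (at most 10.5 elsewhere) and the lowest adipocyte list (9956 CPM, against 15966 or more), and H100 replicate 1 held 45.4 CPM of Ucp1 (at most 0.635 elsewhere). Member values in fat without each of these 2 fat libraries are given below.

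In liver, 4 of the 10 genes fell under halofuginone and 0 rose. They were the desaturases Scd1 and Scd2, the elongase Elovl5 and the carboxylase Acacb. Scd1 fell by 1.74 on the log2 scale, Elovl5 by 1.18, Acacb by 0.80 and Scd2 by 0.43. Fasn, Acaca, Acly and Elovl6, which carry palmitate synthesis and its elongation, did not pass the test, and neither did the regulators Srebf1 and Mlxipl. A difference between called and uncalled members was not tested. The log2 fold changes of Fasn (−0.39) and Srebf1 (−0.41) were close to that of Scd2. Over all 12311 genes tested in liver, edgeR called 23.2%, 10.5% lower and 12.7% higher, at a Benjamini-Hochberg adjusted p under 0.05. The median log2 fold change was −0.40 over the 10 genes and 0.02 over all genes tested. Scaling by library size alone moved the median of all genes to 0.17 and the split of calls from 1558 higher and 1292 lower to 2789 and 838, so fold changes are relative to the TMM scaling.

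Scd1 (ENSMUSG00000037071) encodes the main stearoyl-CoA desaturase of liver. It measured 5089, 7464, 2118, 8696 and 5008 CPM in HFD livers 1 to 5, and 1283, 1114, 1790, 2653 and 1657 CPM in H100 livers 1 to 5. All treated livers lay below 4 of the HFD livers, and HFD liver 3 fell inside the treated range, so the groups overlapped. The mean went from 5675 ± 2538 to 1699 ± 599 CPM (SD, n = 5 each), with a standard error of 0.36 on the log2 fold change and an edgeR adjusted p of 0.0105. Without each library in turn the log2 fold change stayed between −1.97 and −1.54 and was called in 10 of 10 fits. Scd1 took 0.196 to 0.864% of all counts in HFD livers and 0.121 to 0.264% in H100 livers.

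Elovl5 (ENSMUSG00000032349), an elongase of polyunsaturated fatty acids, was the member with the smallest p in liver. Its CPM was 459, 499, 344, 516 and 441 in HFD livers and 269, 122, 191, 199 and 215 in H100 livers. Each of the 5 treated livers lay below all HFD livers, the single member of which this held in liver. Groups did not overlap in 11.7% of all genes tested there, with H100 below in 6.55%. The mean went from 452 ± 67.2 to 199 ± 52.8 CPM (SD, n = 5 each; SE of the log2 fold change 0.20, edgeR adjusted p 0.00504).

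Acacb (ENSMUSG00000042010) encodes the carboxylase at the mitochondrial surface, whose malonyl-CoA restrains the entry of fatty acids into oxidation. It was at 42.1, 71.5, 63.2, 69.0 and 73.3 CPM in HFD livers and at 42.9, 25.9, 27.2, 42.0 and 44.7 CPM in H100 livers. HFD liver 1 lay within the treated range, and the other 4 HFD livers were above every treated liver. The log2 fold change of −0.80 (SE 0.20) had an edgeR adjusted p of 0.0178. Leaving out any 1 library kept that call, but in 1 fit of all 16 libraries the adjusted p was 0.0933. Scd2 (ENSMUSG00000025203), a desaturase that is scarce in liver, was at 4.44, 4.76, 4.94, 5.75 and 5.31 CPM in HFD livers and at 4.67, 3.54, 3.40, 3.67 and 3.46 CPM in H100 livers. Treated replicates 2 to 5 were below every HFD liver, and replicate 1 was inside the HFD range. Its log2 fold change of −0.43 (SE 0.13, adjusted p 0.0371 in edgeR) was the least stable of the 4 calls: it was lost when any of HFD livers 2, 3, 4 or 5 or H100 livers 2, 3, 4 or 5 was left out (adjusted p up to 0.0943), with library size alone (0.141) and in 1 fit of all libraries (0.177). Without H100 liver 1 its adjusted p was 0.00302, and the same 4 members were called.

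**Figure D1:**
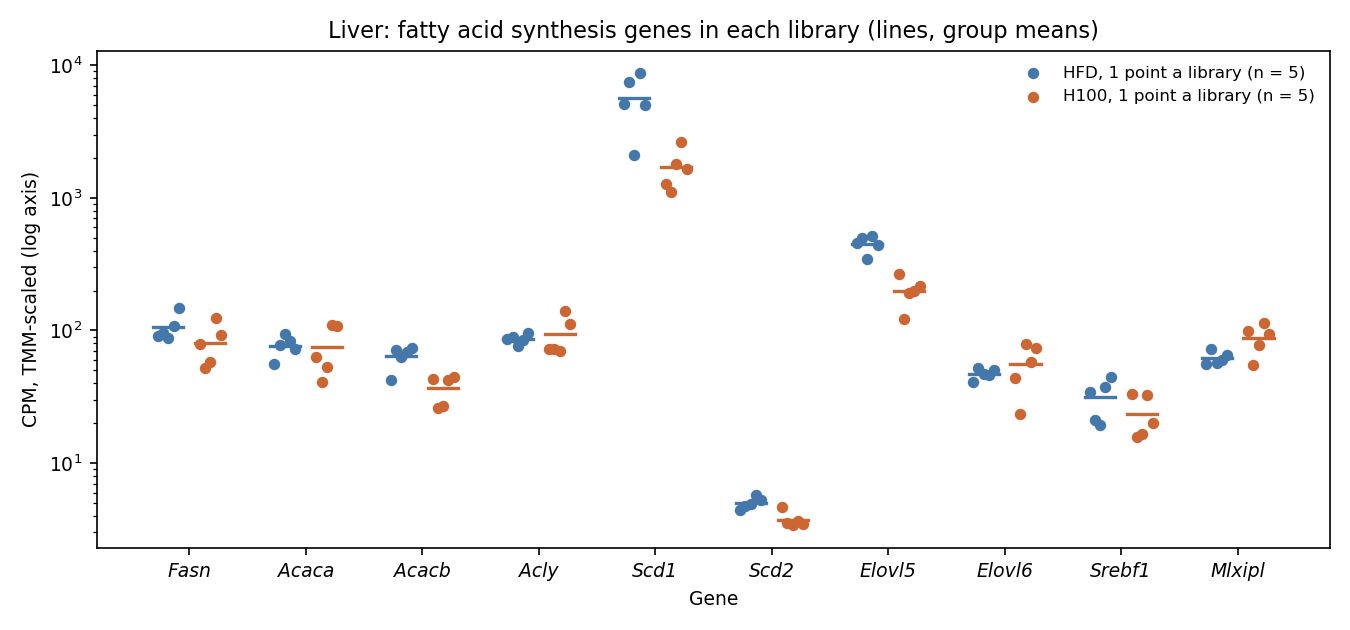
CPM (TMM-scaled, log axis) of each gene in the 5 HFD and 5 H100 liver libraries, with lines at the group means. Elovl5 is the gene whose groups do not overlap (344 to 516 against 122 to 269 CPM), while treated livers spread on either side of the HFD values for Acaca, Acly and Elovl6.

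The enzymes of palmitate synthesis and Elovl6 had larger SDs among treated than among HFD livers (for Acly, 31.8 against 6.73 CPM), and their treated values lay on either side of the HFD means. Acly measured 76.7 to 95.2 CPM in HFD livers, whereas H100 livers 1 to 3 were below that range (72.7, 72.5 and 69.7 CPM) and H100 livers 4 and 5 above it (141 and 112 CPM). Acaca showed the same kind of spread, with H100 livers 4 and 5 above the HFD range (111 and 108 CPM, HFD 55.6 to 93.8) and H100 livers 2 and 3 below it (41.2 and 52.6 CPM). Their log2 fold changes were 0.12 (SE 0.19, edgeR adjusted p 0.689) and −0.03 (SE 0.26, adjusted p 0.951), and that of Acaca turned positive (0.11) with library size alone. Fasn measured 90.7, 95.2, 88.1, 108 and 148 CPM in HFD livers and 79.5, 51.9, 57.7, 124 and 91.9 CPM in H100 livers. Treated livers 1 to 3 lay below every HFD liver and treated livers 4 and 5 within their range, and the log2 fold change of −0.39 (SE 0.23) had an edgeR adjusted p of 0.238. Elovl6, which elongates palmitate, was at 40.7 to 52.1 CPM in HFD livers and at 43.5, 23.4, 78.6, 58.0 and 74.3 CPM in H100 livers (log2 fold change 0.24, SE 0.26, adjusted p 0.530).

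The regulators did not pass the test in liver. Mlxipl measured 56.4, 72.4, 57.0, 60.4 and 65.9 CPM in HFD livers and 98.4, 54.7, 77.6, 115 and 94.1 CPM in H100 livers. Treated livers 1, 3, 4 and 5 were above every HFD liver and treated liver 2 was below them all. Its log2 fold change of 0.49 (SE 0.17) had an edgeR adjusted p of 0.0578. This became 0.0150 without H100 liver 2, 0.0422 in DESeq2 and 0.0135 with library size alone. In edgeR it was 0.0647 with DESeq2 size factors, 0.124 with the replicate block and 0.174 in 1 fit of all libraries. Mlxipl was called in 1 of the 10 fits that left out a library (adjusted p up to 0.146). Srebf1 measured 34.4, 21.2, 19.3, 37.4 and 44.2 CPM in HFD livers and 33.0, 15.7, 16.7, 32.8 and 19.99 CPM in H100 livers. The ranges overlapped, with a log2 fold change of −0.41 (SE 0.28, adjusted p 0.299 in edgeR). These gene-level counts do not separate the 1a and 1c forms of SREBP-1 or the forms of ChREBP.

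Other readouts moved with the liver arms. The summed level of 6 hepatocyte markers was 116327 to 127896 CPM in HFD livers and 35664 to 109723 CPM in H100 livers, with 2 of 6 (Ttr and Apoc3) called and replicate 1 the highest treated liver. In bulk tissue, fewer cells of a type and less RNA per cell cannot be told apart. The part of this shift, or of those in the other lists given next, in the members' falls was not tested. The sum of 6 adipocyte markers was 31.3 to 49.8 CPM in HFD livers and 18.2 to 21.3 CPM in H100 livers, but Adipoq, Plin1 and Retn had at most 1 count and Lep 0 counts in every liver library. Of 4 brown adipocyte markers, the 2 tested were called lower, with sums of 74.1 to 133.5 CPM in HFD and 19.9 to 61.8 CPM in H100 livers, and Ucp1 had 0 counts in every liver. One of the 2 is Elovl3, which also stands in the chain-building list below. An erythrocyte list of 3 likewise did not overlap (117 to 196 against 64.5 to 114 CPM, 1 of 3 called). The sum of 4 endothelium markers overlapped (134 to 147 against 121 to 156 CPM), although 3 of 4 were called. The sum of 5 macrophage markers overlapped too (252 to 330.0 against 232 to 430 CPM), with 0 of 5 called.

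In white adipose tissue, no gene of the 10 passed the test, and 3 separated the arms without overlap: Fasn and Scd2 were lower and Elovl5 was higher in all 3 treated libraries. Of the 14030 genes tested in fat, edgeR called 0% at an adjusted p under 0.05, and 13.4% (1881) had an unadjusted p under 0.05, 5.5% higher and 7.91% lower. Groups did not overlap in 20.6%, with H100 below in 10.4% and above in 10.2%. DESeq2, run as an alternative, called 671 genes in fat, among them Fasn and Scd2. The median log2 fold change of the 10 genes was 0.17, beside 0.01 over all genes tested.

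Fasn (ENSMUSG00000025153) measured 733, 1066 and 417 CPM in HFD fat and 137, 100.1 and 289 CPM in H100 fat. The highest treated value stayed below the lowest HFD value. The log2 fold change was −2.08 (SE 0.50), with an unadjusted p of 0.00439 and an edgeR adjusted p of 0.191, and DESeq2 gave an adjusted p of 0.00140. Scd2 was at 171, 192 and 126 CPM in HFD fat and at 32.0, 47.9 and 78.2 CPM in H100 fat, again with no overlap. Its log2 fold change was −1.63 (SE 0.35), with an unadjusted p of 0.00236 and adjusted p-values of 0.164 in edgeR and 0.000883 in DESeq2. In 1 fit of all 16 libraries, which shares 1 estimate of the spread between tissues, the adjusted p was 0.0223 for Fasn and 0.00533 for Scd2. Other settings did not call Fasn. Its adjusted p was 0.186 in limma on log2(FPKM + 1), and in edgeR 0.210 with library size alone and 0.504 with the replicate block.

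The macrophage markers moved with these falls. The sum of 5 macrophage markers was 4433 to 9170 CPM in HFD fat and 2839 to 3222 CPM in H100 fat, and all 5 had an unadjusted p under 0.05. Their part in the lower Scd2 and Fasn was not tested. A list of 5 skeletal muscle markers also separated the arms (88.7 to 172 against 51.1 to 59.5 CPM), with 1 of 5 at an unadjusted p under 0.05. The adipocyte list measured 9956, 18480 and 18961 CPM in HFD fat as lowest, median and highest, and 15966, 16849 and 18977 CPM in H100 fat, with 0 of 6 markers at an unadjusted p under 0.05. HFD fat 3, with the lowest adipocyte and the highest macrophage list, had the lowest Fasn and Scd2 of the HFD arm, and without it the log2 fold changes were −2.36 for Fasn and −1.78 for Scd2.

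**Figure D2:**
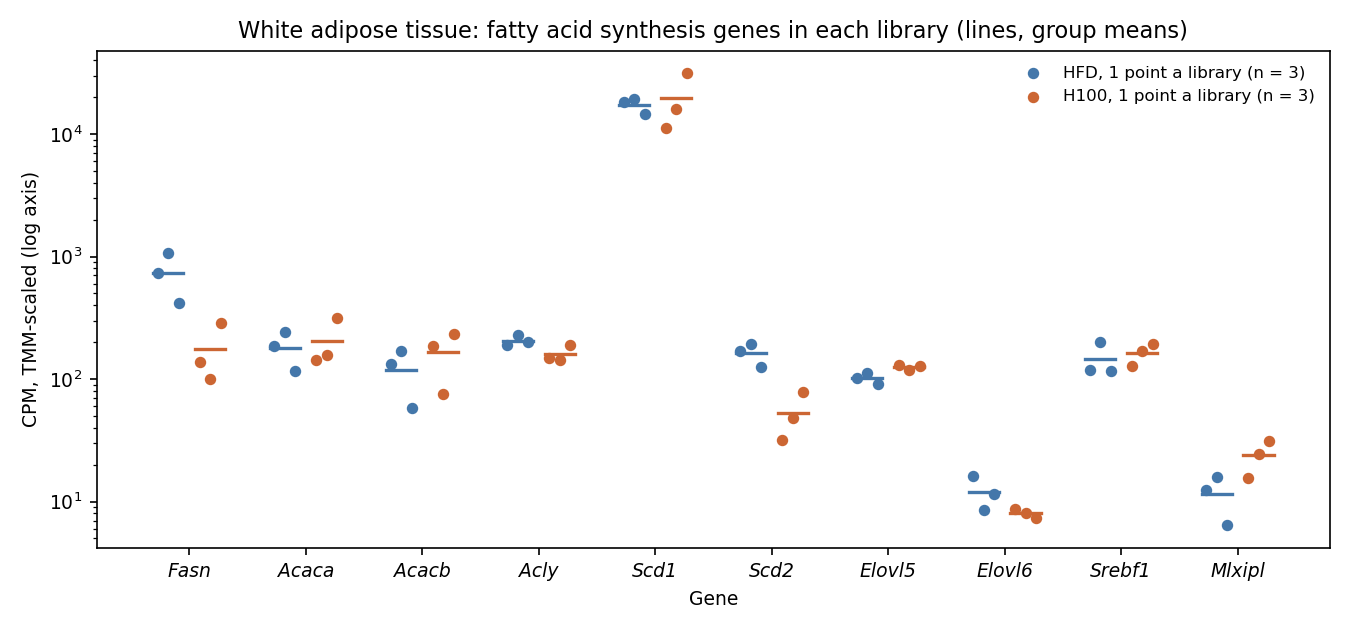
CPM (TMM-scaled, log axis) of each gene in the 3 HFD and 3 H100 libraries of white adipose tissue, with lines at the group means. Fasn (417 to 1066 against 100.1 to 289 CPM) and Scd2 (126 to 192 against 32.0 to 78.2 CPM) separate the arms, and Scd1 does not (14605 to 19446 against 11160 to 31270 CPM).

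Scd1 was by far the most abundant of the 10 genes in fat, at 1.37 to 1.97% of all counts in HFD libraries and 1.14 to 3.24% in H100 libraries. It measured 18088, 19446 and 14605 CPM in HFD fat and 11160, 16049 and 31270 CPM in H100 fat. Treated replicate 3 was above the HFD range, replicate 1 below it and replicate 2 inside it. The log2 fold change of 0.17 (SE 0.39, adjusted p 0.895 in edgeR) became −0.34 without H100 replicate 3. Acaca and Acacb were likewise highest in H100 replicate 3 (317 and 234 CPM), with log2 fold changes of 0.18 (SE 0.39) and 0.47 (SE 0.51). Neither was called. For Acacb the log2 fold change was 0.14 without HFD fat 3 and 0.16 without H100 fat 3, and ran from 0.14 to 0.85 without single libraries. Without HFD fat 3, Acaca was at −0.052 and Scd1 at 0.056.

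Elovl5 went the other way in fat, at 101, 111 and 91.6 CPM in HFD libraries and 130, 119 and 127 CPM in H100 libraries. The groups did not overlap, the log2 fold change was 0.31 (SE 0.14), the unadjusted p 0.0691 and the edgeR adjusted p 0.408. Mlxipl measured 12.5, 15.98 and 6.41 CPM in HFD fat and 15.6, 24.4 and 31.4 CPM in H100 fat. Treated replicate 1 lay just under the highest HFD value, and the log2 fold change of 1.04 (SE 0.39) had an unadjusted p of 0.0328 and an edgeR adjusted p of 0.330. Srebf1 was at 117 to 200.3 CPM in HFD fat, and all 3 treated libraries lay within that range (129 to 195 CPM). Acly (log2 fold change −0.36, SE 0.18) and Elovl6 (−0.58, SE 0.27) were not called. Without H100 fat 1, the library with Ucp1, the log2 fold change was −1.92 for Fasn, −1.37 for Scd2, 0.39 for Acaca, 0.38 for Acacb and −0.31 for Acly. Without it, Scd1 was at 0.45, Elovl5 at 0.28, Elovl6 at −0.64, Srebf1 at 0.32 and Mlxipl at 1.27. Without HFD fat 3, Srebf1 was at 0.044, Mlxipl at 0.75, Elovl5 at 0.24, Elovl6 at −0.61 and Acly at −0.38. Every member but Acaca thus kept its sign without either library.

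Whether the drug acted differently on these genes in the 2 tissues was asked of a joint model over the 16 libraries, by subtracting the effect in liver from that in fat. Of 14853 genes, edgeR called 0.949%, and of the 10 members it called Elovl5 alone. Its log2 fold change was −1.18 in liver and 0.31 in fat, a difference of 1.47 (SE 0.28, edgeR adjusted p 0.0291). The call was lost, with adjusted p up to 0.0622, without liver HFD 2 or 4, liver H100 3, fat HFD 1 or 3 or fat H100 1 or 2, and the difference stayed between 1.34 and 1.595. With liver and fat of the same arm and number taken as 1 animal it had an adjusted p of 0.268.

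Scd1, Scd2 and Fasn had the next smallest p-values, but edgeR did not call them. The difference was 1.89 for Scd1 (SE 0.60, adjusted p 0.137), −1.21 for Scd2 (SE 0.33, adjusted p 0.0836) and −1.70 for Fasn (SE 0.53, adjusted p 0.128). Without H100 fat 3 the adjusted p was 0.0111 for Scd2 and 0.0433 for Fasn, and DESeq2 called Scd1, Scd2, Fasn and Elovl5. Between the tissues, 7 of the 10 genes had log2 fold changes of opposite sign, 2 (Fasn and Scd2) were negative in both and 1 (Mlxipl) was positive in both. Several of these signs rest on changes smaller than their standard errors. The share of opposite signs over all genes tested was not computed, so this count is not read as a result about the members.

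**Figure D3:**
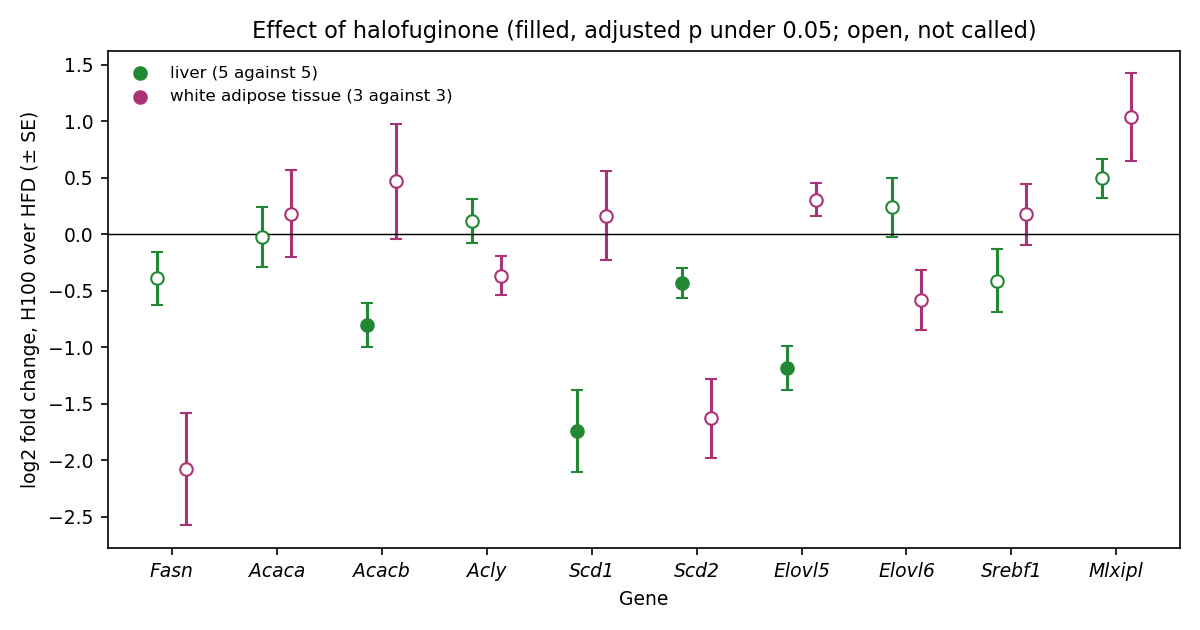
log2 fold change of H100 over HFD with its standard error for each gene, in liver (5 against 5 libraries) and white adipose tissue (3 against 3). Filled points passed an adjusted p of 0.05 (Scd1, Elovl5, Acacb and Scd2, in liver), and the largest falls in fat (Fasn, −2.08, and Scd2, −1.63) are open.

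Levels per gene length show which members dominate each tissue. In the deposited FPKM (counts scaled by gene length and depth), HFD livers held 1121 ± 520 of Scd1, 155 ± 26.3 of Elovl5, 24.4 ± 2.53 of Mlxipl and 18.9 ± 1.81 of Acly (SD, n = 5). Acaca (11.6 ± 1.71) and Fasn (11.6 ± 2.86) had overlapping ranges, as did Elovl6 (7.89 ± 0.61), Srebf1 (7.78 ± 2.84) and Acacb (7.06 ± 1.45), and Scd2 was lowest at 0.888 ± 0.121. The other neighbours in this order did not overlap. Beyond neighbours, the range of Srebf1 (4.51 to 10.85) also reached those of Fasn (9.41 to 16.28) and Acaca (9.19 to 13.9). In H100 livers the order at the top was the same, but Scd1 (373 ± 124) and Elovl5 (75.3 ± 17.5) stood closer to Mlxipl (35.3 ± 6.88), whose range overlapped that of Acly (22.6 ± 6.73).

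In HFD fat Scd1 (3530 ± 632 FPKM, SD, n = 3) was followed by Fasn (83.2 ± 39.5) and Acly (46.8 ± 6.44), whose ranges overlapped, then by Elovl5 (36.7 ± 4.48) and Srebf1 (36.4 ± 13.01). The range of Srebf1 (28.04 to 51.4) also overlapped those of Acly (42.5 to 54.16) and Fasn (44.5 to 123.38). Scd2 (29.4 ± 7.11), Acaca (25.2 ± 8.78) and Acacb (16.01 ± 8.18) came next with overlapping ranges, and Mlxipl (5.23 ± 2.07) and Elovl6 (2.08 ± 0.64) were lowest. The ranges of Scd2 (21.73 to 35.79) and Acaca (15.74 to 33.09) also reached those of Elovl5 (31.98 to 40.88) and Srebf1. That of Mlxipl (3.15 to 7.28) reached that of Acacb (6.9 to 22.71). In H100 fat Fasn averaged 20.4 ± 12.0 FPKM, and its range overlapped those of Srebf1 (41.7 ± 9.55), Acly (38.1 ± 6.36), Acaca (27.0 ± 15.4), Acacb (21.2 ± 10.8), Mlxipl (11.4 ± 4.36) and Scd2 (9.90 ± 4.51), so its place among them was not resolved. Elovl5 had the highest mean after Scd1 there, at 46.1 ± 2.56, and its range overlapped those of Srebf1, Acly and Acaca. Tables of the 2 tissues were normalized separately, so levels are ordered within a tissue only.

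Ratios between genes of like function were compared within each library, which cancels depth and scaling. In liver, Acaca over Acacb and Elovl6 over Elovl5 were higher in all 5 treated livers than in any HFD liver. The denominators Acacb and Elovl5 were already called lower in liver, and the numerators Acaca and Elovl6 were not called. These 2 ratios therefore restate those falls and are not separate evidence of a shift. The FPKM ratio of Acaca to Acacb was 1.98, 1.598, 2.05, 1.41 and 1.40 in HFD livers and 2.26, 2.45, 2.77, 3.48 and 3.41 in H100 livers. The difference of the mean log2 ratio was 0.77, and the two-sided exact permutation test gave p = 0.00794, which 5 libraries against 5 cannot undercut (0.0159 after Benjamini-Hochberg over the 4 ratios). For Elovl6 over Elovl5 the ratio was 0.0437 to 0.0688 in HFD livers and 0.0767, 0.103, 0.201, 0.150 and 0.176 in H100 livers. Its log2 difference of 1.38 had the same exact permutation p, and both calls held whichever library was left out.

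The ratio of the desaturases Scd1 and Scd2 averaged lower in treated liver and higher in treated fat. In liver the log2 fold change was −1.74 for Scd1 and −0.43 for Scd2, both called. In fat it was 0.17 for Scd1 and −1.63 for Scd2, neither called. The ratio restates these changes and is not separate evidence of a shift. In liver the ratio of Scd1 to Scd2 was 1297, 1774, 482, 1704 and 1011 in HFD and 311, 364, 593, 678 and 548 in H100, a log2 difference of −1.25 (exact permutation p 0.0317, adjusted 0.0423). The call rested on most single libraries, since it was lost in 9 of 10 fits that left one out and kept only without HFD liver 3. In fat the ratio was 120, 114 and 131 in HFD and 394, 378 and 451 in H100, a log2 difference of 1.74 with no overlap. The exact permutation test gave p = 0.1, which 3 libraries against 3 cannot undercut. Replicates agreed closely here, with SDs of 0.10 and 0.13 on the log2 scale. The difference between the tissues was not tested for ratios. Reads of the similar Scd genes may have been divided between them in the authors' counting, so the level of Scd2 beside the far more abundant Scd1 is uncertain.

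Mlxipl over Srebf1, the carbohydrate-responsive against the insulin-responsive regulator, was 2.58, 5.71, 5.04, 2.52 and 2.16 in HFD livers and 4.50, 5.78, 7.06, 5.02 and 7.01 in H100 livers. The groups overlapped, and the log2 difference of 0.80 had an exact permutation p of 0.0556 (adjusted 0.0556). In fat it was 0.177, 0.142 and 0.112 in HFD and 0.247, 0.240 and 0.318 in H100, a log2 difference of 0.91 (exact permutation p 0.1). All 3 treated fat libraries were above the HFD range. Elovl6 over Elovl5 was lower in all 3 treated fat libraries (0.0276 to 0.0315 against 0.0357 to 0.0733, log2 difference −0.87, exact permutation p 0.1), and Acaca over Acacb overlapped (log2 difference −0.39, exact permutation p 0.4).

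**Figure D4:**
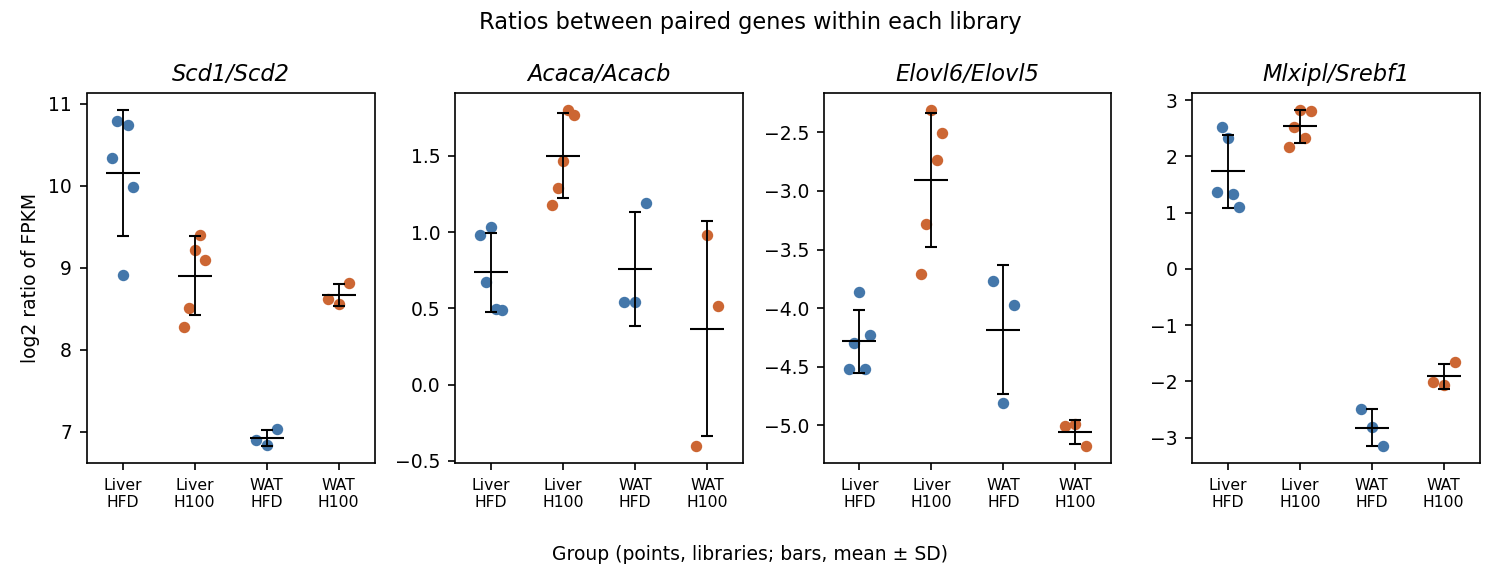
log2 ratio of FPKM between 2 genes in each library, with the mean ± SD of each group (n = 5 in liver, 3 in white adipose tissue). Acaca/Acacb and Elovl6/Elovl5 are higher in every treated than in any HFD liver, and Scd1/Scd2 is higher in treated fat (log2 8.56 to 8.82 against 6.83 to 7.03) but lower on average in treated liver. The axes differ between panels and do not start at 0.

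The wider pathway was read from 3 further lists. Of 26 genes that supply acetyl-CoA and NADPH or build and desaturate the chain, 22 were tested in liver, of which 7 fell, 2 rose and 13 were not called (10.5% lower and 12.7% higher over all genes tested). The median log2 fold change was −0.44. The falls with the smallest p were in Hsd17b12 (−1.06, SE 0.14, edgeR adjusted p 0.00284), Acss2 (−1.20), Tecr (−0.76), Idh1 (−0.87), Hacd2 (−0.48) and Hacd3 (−0.58). Hsd17b12, Tecr, Hacd2 and Hacd3 encode the reduction and dehydration steps that complete each round of elongation after the Elovl enzymes. Acss2 makes cytosolic acetyl-CoA from acetate, and Idh1 is a cytosolic source of NADPH. All H100 livers were below all HFD livers for Hsd17b12 (213 ± 22.4 against 102 ± 19.3 CPM, SD, n = 5), Acss2, Hacd2 and Hacd3. The same held for Slc25a1 and Fads1, which were not called. That makes 6 of the 22 tested, beside 6.55% of all genes tested in liver. The calls of Hacd3 (lost without HFD liver 1, 3 or 5 or H100 liver 3 or 4, adjusted p up to 0.0715) and Hacd2 (0.0547 without H100 liver 3, 0.129 in 1 fit of all libraries) were less stable. The other 3 called genes were named after their values were seen: Elovl3, an elongase of very long chains, fell by 1.07 (SE 0.30), Fads3, of the fatty acid desaturase family, rose by 1.01 (SE 0.30), and Mid1ip1, an activator of acetyl-CoA carboxylase, rose by 1.06 (SE 0.34). These calls held in 2, 3 and 2 of the 10 fits that left out a library.

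In fat 23 of these 26 genes were tested and 0 were called, 7 having a lower and 1 a higher level at an unadjusted p under 0.05, with a median log2 fold change of −0.33. Slc25a1, the mitochondrial citrate carrier (log2 fold change −1.13, SE 0.23, edgeR adjusted p 0.160), Idh1 (−0.77, SE 0.17) and Acss2 (−1.18, SE 0.27) had the smallest p-values. Treated fat lay below HFD fat without overlap in each of the 3. Over the list this held for 4 of the 23 tested, beside 10.4% of all genes tested in fat. DESeq2 called all 3. Of the others at an unadjusted p under 0.05, named after their values were seen, Me1, Pgd, Hacd2 and Thrsp had log2 fold changes of −0.73, −0.68, −0.85 and −1.52, and Mid1ip1 of 0.60.

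Of 26 genes that control SREBP and ChREBP, all were tested in both tissues. In liver 2 rose and 1 fell, a smaller share than the 23.2% called over all genes. Mlx, the obligate partner of ChREBP, went from 30.0 ± 2.62 to 53.1 ± 14.2 CPM (SD, n = 5 each; log2 fold change 0.83, SE 0.18, edgeR adjusted p 0.0134), and Stk11, the kinase upstream of AMPK, rose by 0.27 (SE 0.08). Insig1, which retains SREBP in the endoplasmic reticulum and is itself a target of SREBP, fell by 1.07 (SE 0.25, adjusted p 0.0156). The call of Stk11 was lost in 7 of 10 fits that left out a library: HFD liver 1, 2, 3 or 4 or H100 liver 3, 4 or 5 (adjusted p up to 0.0987). It was also lost with no filter on low counts (0.0588), in 1 fit of all libraries (0.0856) and with the replicate block (0.0757). In fat 0 were called. Insig1 (log2 fold change −1.03, SE 0.22, edgeR adjusted p 0.162), Insr (0.64, SE 0.22) and Mlx (0.43, SE 0.15) had the smallest p-values, each without overlap between the groups. Over the 26 genes, H100 lay above HFD without overlap in 7 and below in 2, beside 10.2% and 10.4% of all genes tested in fat. The median over the list was −0.03 in liver and 0.13 in fat.

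Of 14 further known targets of SREBP-1c or ChREBP, 13 were tested in liver, where 3 fell and 0 rose, a share near the 23.2% called over all genes. Gpd1, which makes glycerol 3-phosphate, was among them and went from 438 ± 39.3 to 206 ± 86.9 CPM (SD, n = 5 each; log2 fold change −1.09, SE 0.27, edgeR adjusted p 0.0188) with no overlap. Its adjusted p was 0.0529 without H100 liver 3. H100 lay below HFD without overlap in 2 of the 13 genes, beside 6.55% of all genes tested in liver. In fat 11 of the 14 were tested and 0 called. Pnpla3 (36.1 ± 14.1 against 7.04 ± 3.24 CPM, SD, n = 3 each; log2 fold change −2.36, SE 0.47, edgeR adjusted p 0.159) did not overlap between the arms, and Khk (−0.66) did. H100 lay below HFD without overlap in 1 of the 11, beside 10.4% of all genes tested in fat. The median was 0.04 in liver and −0.10 in fat.

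**Figure D5:**
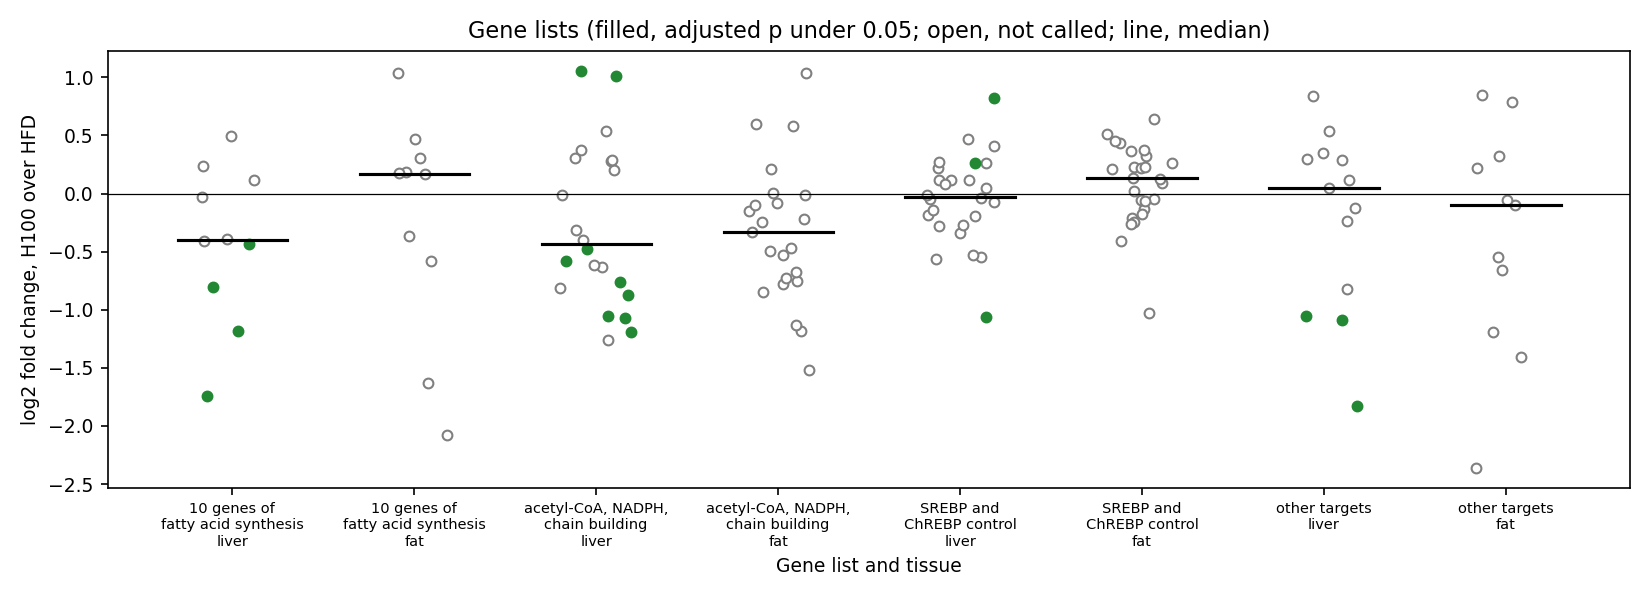
log2 fold change of H100 over HFD for the 10 genes and 3 wider lists in each tissue, 1 point a gene, filled where the adjusted p was under 0.05 and with a line at the median. In liver the called genes of the acetyl-CoA, NADPH and chain-building list are 7 lower and 2 higher, and in fat no gene is filled.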

How the data were processed

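Trizol-extracted RNA was enriched on oligo(dT) beads for NEBNext Ultra libraries, per the labels' protocols. The submitters' processing notes name fastp 0.18.0, Bowtie2 2.2.8, HISAT2, StringTie 1.3.1 and RSEM, and the build mm39, without the role of each tool. Annotation, strand and handling of duplicate reads are not given in the sources used here. Per the file headers, the authors deposited a count and an FPKM value for each gene and library. The deposited counts are whole numbers, and between 1 and 31 genes a library carried an FPKM above 0 with a count of 0, and some may be rounded estimates. The gene name table used for symbols held 22267 of the 22322 identifiers. All columns matched a sample title, so 0 were left unmapped.

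The members, the lists and the tests were chosen with earlier results of these data known. Each tissue was fitted alone with the quasi-likelihood test of edgeR 4.0.16 (R 4.3.3; filterByExpr, then TMM, glmQLFit, glmQLFTest), two-sided, with Benjamini-Hochberg adjustment over all genes tested and a call at an adjusted p under 0.05. A standard error is the absolute log2 fold change over the square root of F. CPM is the count scaled to the TMM-adjusted library size. Ratios use deposited FPKM and an exact permutation test (scipy 1.17.1). On simulated counts, 69% of 2-fold and 98.0% of 4-fold changes were recovered among 12224 genes at the liver design, and 7.22% and 61.2% among 13805 genes at the fat design. The genes changed at each size were 100 and 98 in liver and 97 and 98 in fat, far fewer than the 2850 called in real liver. Recovery in the real data may therefore differ. A count of 0 allows up to 3 counts, 0.0938 to 0.148 CPM in liver and 0.140 to 0.176 in fat, for counting error only. Chi-square over degrees of freedom between libraries of a group was at least 29.7, so each counted as 1 replicate. Alternatives were DESeq2 1.42.0, its size factors, library size alone, 2 other filters, limma 3.58.1 on log2(FPKM + 1 or 0.1), a replicate block, 1 fit of all groups, robust dispersion and leaving out each library. From the wider lists, each tissue's called genes were named, up to 6 a list by smallest p, or the 3 smallest where none was called. Some genes that this rule names are not reported here.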

Additional observations from a re-analysis of the deposited data

Results flagged for a closer look

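In H100 liver 1, Scd2 measured 4.67 CPM, while the next treated liver held 3.67 CPM, a gap of 0.790 of the range of the 5 treated livers (limit 0.71). Of 28 groups of 5 liver values examined this way, 1 passed the limit, where chance gives about 1.4. The counts of Scd2 in H100 livers 1 to 5 were nearly equal, at 94, 95, 95, 95 and 93. As a share of all counts, before TMM scaling, Scd2 was at 0.000463, 0.000384, 0.000403, 0.000364 and 0.000357% in H100 livers 1 to 5. The gap in CPM thus reflects the TMM factors together with the size of library 1 (20309956 counts in all), not more Scd2 reads. Without this library the log2 fold change of Scd2 in liver was −0.54.

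The drug effect on Elovl5 differed between the tissues in edgeR's test of the difference itself, by 1.47 on the log2 scale (fat minus liver, SE 0.28, adjusted p 0.0291). The call held in 9 of 16 fits that left out a library (adjusted p up to 0.0622) and was lost with the replicate block. Elovl5 was lower in 5 of 5 treated livers and higher in 3 of 3 treated fat libraries than in any HFD library of the tissue. Groups did not overlap in 11.7% of all genes tested in liver and 20.6% in fat. In fat alone the edgeR unadjusted p of Elovl5 was 0.0691.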

How the results depend on the processing

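Scd1, Elovl5 and Acacb in liver kept their call without each library in turn. The count of members called in liver was 5 in DESeq2 (with Mlxipl higher), 3 with the replicate block, 2 in 1 fit of all groups and 3 to 4 without single libraries, and of all liver genes 1275 to 5312. In fat, DESeq2 called 671 genes, 1 fit of all groups 334, limma on log2(FPKM + 1) 13 and no filter on low counts 1, with 2 members called by DESeq2 and 2 by 1 fit of all groups, and 0 to 1 genes and 0 members without single libraries. For the difference between tissues, DESeq2 called 686 genes and 4 members, the replicate block 2 genes and 0 members, and fits without single libraries 34 (without H100 liver 3) to 1053 (without H100 liver 1) genes and 0 to 3 members. Within a tissue, same-numbered HFD and H100 libraries showed no pairing (correlations of same-numbered deviations from −0.16 to 0.06 in liver and −0.57 to 0.11 in fat). Whether same-numbered liver and fat libraries of an arm are paired was not examined. With the replicate block, 1901 liver genes and 0 fat genes were called, Scd2 in liver had an adjusted p of 0.0861, and the liver log2 ratios of Scd1/Scd2 (−1.25), Acaca/Acacb (0.77) and Elovl6/Elovl5 (1.38) were not called, since 5 pairs cannot go below 0.0625. Mlxipl/Srebf1 in liver was called from counts (0.87) and with 0.1 FPKM added (0.79). Without single libraries, liver ratio differences were −1.56 to −1.09 (Scd1/Scd2) and 0.64 to 1.00 (Mlxipl/Srebf1). Acaca in liver was 0.11 with library size alone, 0.082 in limma on log2(FPKM + 1), 0.084 on log2(FPKM + 0.1) and −0.22 to 0.12 without single libraries. Without single libraries, Acly in liver ran from −0.095 to 0.21, Acaca in fat from −0.26 to 0.44, Scd1 in fat from −0.34 to 0.45, and the tissue difference of Acaca from −0.29 to 0.47. The causes of these changes were not tested. At 93 to 162 counts a library, Scd2 in liver was the least deeply counted member.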
